A study of Mus musculus with 12 samples.

Results

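Primary skin fibroblasts from WT and Nox4 KO mice were compared after stimulation with TGF-β2, across all genes measured by RNA sequencing. NOX4 is a NADPH oxidase that produces hydrogen peroxide and needs the membrane partner p22phox, encoded by Cyba. In fibroblasts, TGF-β signals through SMAD proteins to raise contractile and matrix genes while the cells turn into myofibroblasts, and Nox4 is among the genes known to respond to it. The comparison asks how the transcriptome of stimulated fibroblasts differs when the Nox4 gene is disrupted.

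The comparison used 6 of the 12 libraries of the study, 3 WT and 3 Nox4 KO. WT mice were C57BL/6 and Nox4 KO mice carried the targeted allele of the strain B6.129-Nox4tm1Kkr/J. Cells of both groups came from abdominal skin, were grown in DMEM with 10% FBS, were starved for 24 h and then received 10 ng/ml TGF-β2 for 24 h. The disrupted allele was present in the whole animal, and WT and Nox4 KO mice were bred in separate litters from littermates of heterozygous parents. The age and sex of the mice are not given in the sources used here. The 6 control libraries received no TGF-β2 and are cited beside single genes and in 1 alternative fit on all 12 libraries. The labels give replicate numbers without saying which culture or animal a number stands for, so p-values measure the spread between these libraries.

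Each library held between 37221997 and 43796260 counted reads. Of 21556 genes in the table, 11583 had a mean of at least 1 CPM (counts scaled to library size) in either group, and these genes form the comparison. All values below are CPM with library sizes scaled by TMM, unless another scale is named. WT and Nox4 KO values are always given in the order of replicates 1, 2 and 3. A log2 fold change is that of Nox4 KO against WT.

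No gene passed the test. After Benjamini-Hochberg adjustment of edgeR's quasi-likelihood p-values, with 0.05 as the limit, 0 of 11583 genes (0%) were called, and the smallest adjusted p-value was 0.432, for Hddc3. The next smallest adjusted p-value was 0.84. An unadjusted p-value under 0.05 was found for 381 genes, of which 197 (1.7%) were higher and 184 (1.59%) were lower in Nox4 KO. edgeR's legacy quasi-likelihood test and limma voom also called 0 genes. DESeq2 called 19 genes, 8 of them higher and 11 lower, and edgeR's exact test and likelihood ratio test called 8 genes each.

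The differences were small for most genes. The median log2 fold change over the 11583 genes was 0.0022, with quartiles of -0.13 and 0.15. The 95% interval of the fold change lay within 2-fold in both directions for 10002 genes (86.4%) and within 1.5-fold for 6617 genes (57.1%). For the 1581 genes whose interval was not within 2-fold, a 2-fold difference lay inside the interval or the interval lay beyond it. A log2 fold change of 1 or more was fitted for 74 genes and one of -1 or less for 39 genes. All 3 Nox4 KO libraries lay above all 3 WT libraries for 507 genes (4.38%) and below them for 708 genes (6.11%). These shares are the background against which the counts for gene groups are read below.

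**Figure D1:**
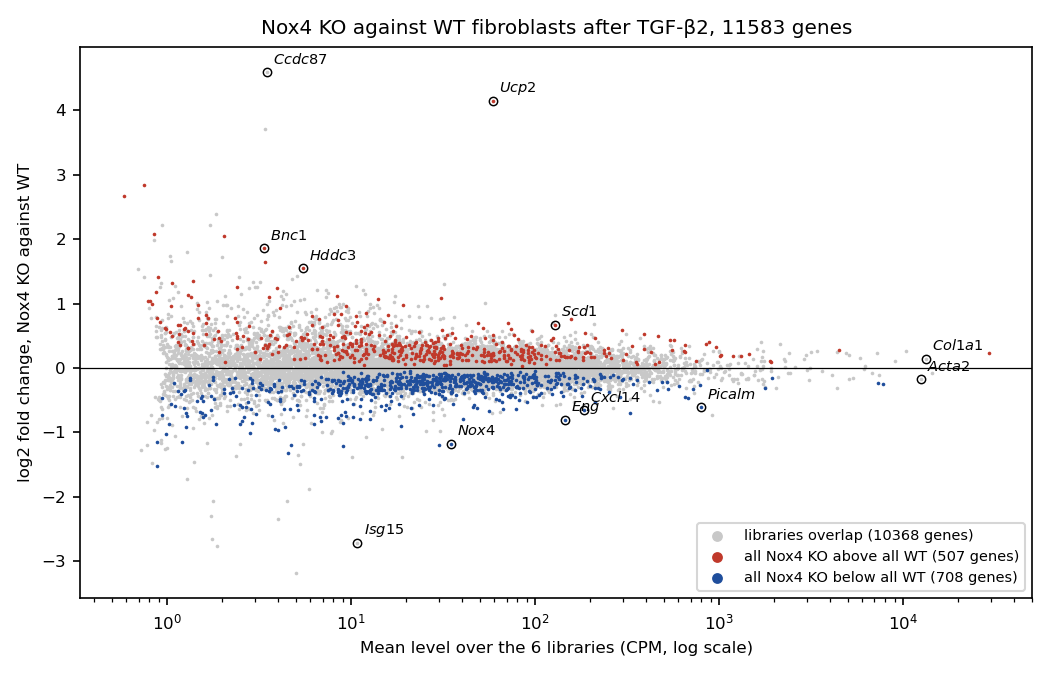
Each point is 1 of 11583 genes, with the mean level over the 6 libraries (CPM, log axis) against the log2 fold change of Nox4 KO against WT. Red and blue points are the 507 and 708 genes whose libraries do not overlap between genotypes, and circles mark named genes, among which Ccdc87 and Isg15 lie far from 0 while their libraries overlap.

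Nox4 itself, at chr7:87246096-87398710 on GRCm38, was counted in every library. Nox4 was measured at 45.4, 33.5 and 66.6 CPM in WT and 18.7, 17.99 and 27.8 CPM in Nox4 KO. All Nox4 KO libraries were below all WT libraries, with a mean of 21.5 ± 5.47 (SD) against 48.5 ± 16.8 (SD) CPM (n = 3 each). Nox4 had a log2 fold change of -1.17 (95% interval -1.85 to -0.50). The counts are summed over exons, so these values do not tell whether the transcript encoded an active enzyme.

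The genes of the other NADPH oxidase enzymes were barely counted in these fibroblasts. The list of NADPH oxidases and their partner subunits held 17 genes, of which 6 passed the filter and all 6 had a negative log2 fold change, with a median of -0.23. With each library left out in turn, 5 to 7 of the listed genes were negative and the median ranged from -0.56 to -0.15. Ncf1, a subunit of the phagocyte oxidase and 1 of the 6, had 34, 13 and 113 reads in WT and 102, 28 and 17 in Nox4 KO. Its highest libraries, WT replicate 3 and Nox4 KO replicate 1, were also the highest for the macrophage markers given below, whose part in this list was not tested. Nox1, Nox3, Cybb, Duox1 and Duox2 stayed under the filter, with at most 5 reads on Nox1, 0 on Nox3 and 87 on Cybb in any of the 6 libraries. A count of 0 allows up to 3 reads. The partner Cyba had 61.4, 92.5 and 54.2 CPM in WT and 63.0, 59.7 and 63.7 CPM in Nox4 KO, and the groups overlapped. Cyba had a log2 fold change of -0.16 (95% interval -0.63 to 0.31). Rac1, a small GTPase used by other oxidases of the family, had a log2 fold change of -0.031 (95% interval -0.26 to 0.19).

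Hddc3, which encodes an enzyme that can remove a phosphate from NADPH, had the smallest p-value of all genes. The WT libraries had 2.83, 3.11 and 2.43 CPM of Hddc3 and the Nox4 KO libraries 9.08, 7.59 and 7.88 CPM. The WT libraries lay between 2.43 and 3.11 and the Nox4 KO libraries between 7.59 and 9.08, so the spread within each group was small beside the difference. The fit gave Hddc3 a log2 fold change of 1.55, with 1.16 and 1.94 as the bounds of its 95% interval. The unadjusted p-value was 3.73e-05, and Hddc3 was called by DESeq2, the exact test and the likelihood ratio test.

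Ucp2, a carrier of the inner mitochondrial membrane, was higher in all 3 Nox4 KO libraries, but unevenly. Levels of Ucp2 were 5.22, 5.41 and 8.38 CPM in WT and 9.69, 182 and 145 CPM in Nox4 KO. Nox4 KO replicate 1 lay close to the highest WT library, and the other 2 Nox4 KO libraries were far above. For Ucp2, the log2 fold change was 4.15, with a 95% interval from 1.83 to 6.46. The control libraries of the same replicate numbers showed the same split, with 5.09, 131 and 99.6 CPM in Nox4 KO and 2.57, 1.59 and 5.24 CPM in WT. Over the kept genes, same-numbered Nox4 KO control and TGF-β2 libraries deviated together from their group means (correlations of 0.764, 0.687 and 0.743). The controls are therefore not read as independent repeats, here or below. Without Nox4 KO replicate 1, Ucp2 was called by edgeR's quasi-likelihood test with an adjusted p-value of 0.0172, the single call among the 6 fits that left out a library.

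Islr, a marker of mesenchymal stromal cells, was lower in Nox4 KO. Islr was measured at 38.8, 32.2 and 54.4 CPM in WT and 13.2, 26.4 and 15.4 CPM in Nox4 KO. The groups did not overlap, with a log2 fold change of -1.19 (95% interval -1.92 to -0.46). Without each library in turn, this log2 fold change ranged from -1.55 to -0.95.

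**Figure D2:**
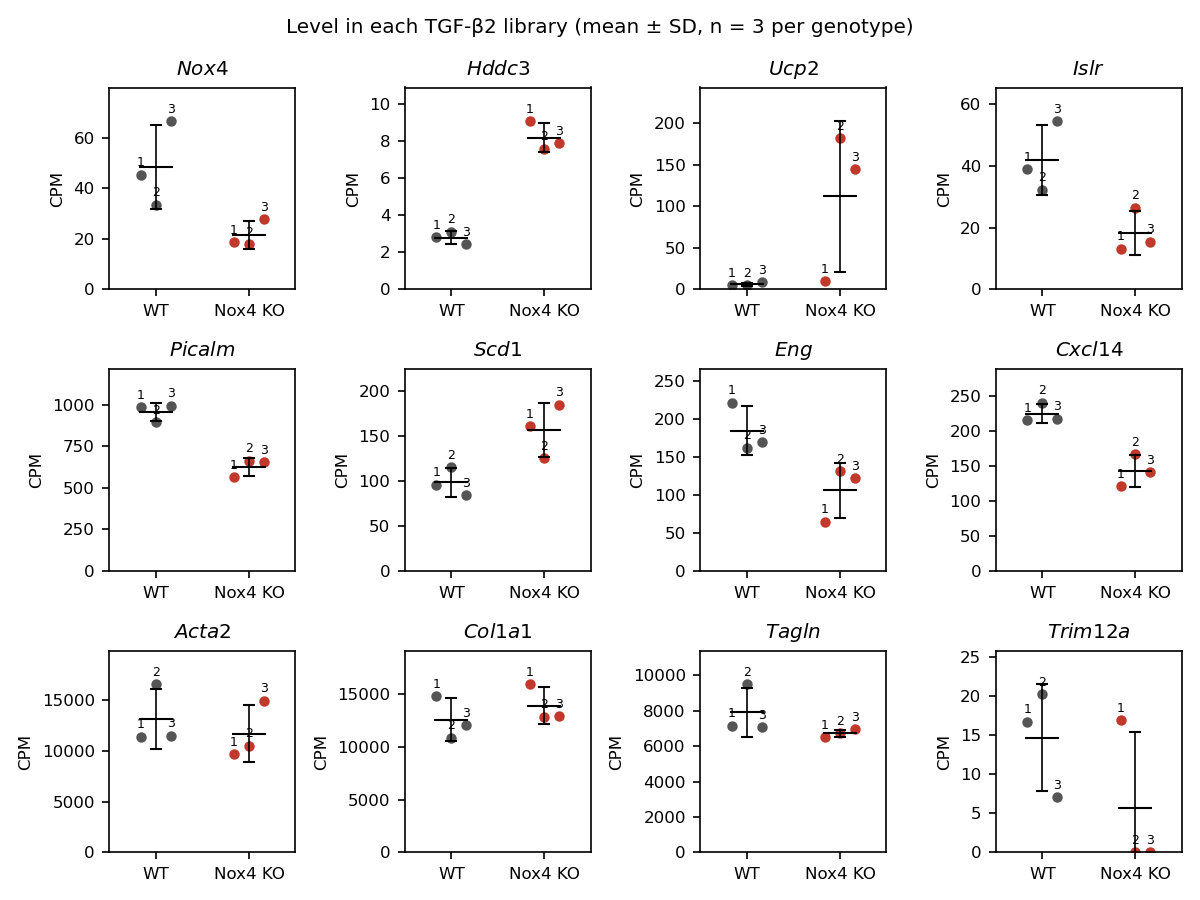
Each panel gives 1 gene in CPM from 0, with a numbered point for each of the 3 WT (grey) and 3 Nox4 KO (red) libraries and the mean ± SD as a bar. Hddc3 separates the genotypes with little spread, and Acta2 and Col1a1 overlap between genotypes. Nox4 KO replicate 1 lies just above WT for Ucp2 and within the WT range for Trim12a, apart from Nox4 KO replicates 2 and 3.

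The genes that lay farthest above WT without overlap were mostly of low level. Among the 12 largest positive differences, 8 genes had a mean under 4 CPM in both groups, and Stmn2, Unc13c, Mmp16 and Capn6 were highest in Nox4 KO replicate 3. The WT libraries had 0.1003, 0.204 and 0.162 CPM of Stmn2 and the Nox4 KO libraries 0.354, 0.253 and 2.41 CPM. Bnc1, a zinc finger factor, was higher in each Nox4 KO library. Levels of Bnc1 were 1.81, 1.35 and 1.19 CPM in WT and 7.62, 5.04 and 3.19 CPM in Nox4 KO. Msln, which encodes the surface protein mesothelin, had 0.502, 0.740 and 1.13 CPM in WT and 5.45, 2.53 and 1.82 CPM in Nox4 KO. Vat1l had 0.125, 0.306 and 0.108 CPM in WT and 2.19, 0.460 and 1.28 CPM in Nox4 KO. Neither gene overlapped between genotypes, and both were low in WT. Bnc1 had a log2 fold change of 1.86 (95% interval 0.996 to 2.73). The water channel gene Aqp5 had a log2 fold change of 1.25 (95% interval 0.47 to 2.03).

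Among the genes called by DESeq2, Picalm had the highest level. Picalm, which takes part in clathrin coat assembly, had 985, 895 and 996 CPM in WT and 566, 664 and 654 CPM in Nox4 KO. The highest Nox4 KO library was well below the lowest WT library. The fit gave Picalm a log2 fold change of -0.61, with -0.86 and -0.36 as the bounds of its 95% interval. Unc45a, a chaperone for myosin, had 86.4, 83.4 and 78.2 CPM in WT and 60.4, 62.0 and 60.6 CPM in Nox4 KO, a smaller but even difference, with a log2 fold change of -0.44 (95% interval -0.64 to -0.24). Sema4b, a semaphorin, had 8.18, 8.25 and 8.17 CPM in WT and 13.9, 12.3 and 14.2 CPM in Nox4 KO. Rccd1 had 13.5, 13.0 and 14.1 CPM in WT and 21.4, 19.2 and 23.5 CPM in Nox4 KO. Sema4b and Rccd1 were above WT in each Nox4 KO library, with fitted fold changes of 1.64 and 1.57. Lipg, which encodes endothelial lipase, had 5.37, 5.39 and 5.12 CPM in WT and 13.9, 8.33 and 12.3 CPM in Nox4 KO. Myrf, a membrane-bound transcription factor, had 12.0, 11.1 and 15.3 CPM in WT and 25.1, 20.5 and 30.3 CPM in Nox4 KO. In both, the Nox4 KO libraries spread more than the WT libraries.

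Of the 20 genes with the smallest p-values, 10 per direction, 10 lay within 20 Mb of Nox4: Adamtsl3, Bnc1, Dlg2, Hddc3, Picalm, Rccd1, Rgma, Sema4b, Ucp2 and Unc45a. In this window, 18.8% of the 181 other kept genes were among the 381 genes at the unadjusted limit, and 3.43% of the 700 genes on the rest of chromosome 7 were.

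The contractile genes of myofibroblasts did not separate the genotypes. All 28 listed genes were kept, 12 had a positive and 16 a negative log2 fold change, and the median was -0.07 against 0.0022 over all genes. Without WT replicate 2 the median was 0.04, and 23 genes were positive. Acta2, which encodes α-smooth muscle actin, had 11438, 16608 and 11527 CPM in WT and 9699.9, 10525 and 14979.6 CPM in Nox4 KO. The highest values were those of WT replicate 2 and Nox4 KO replicate 3, so each group held a high library. For Acta2, the log2 fold change was -0.17, with a 95% interval from -0.75 to 0.41. Tagln, which encodes the actin-binding protein SM22, was lower in each Nox4 KO library, with 7158, 9493 and 7074 CPM in WT and 6519, 6713 and 6938 CPM in Nox4 KO. Its log2 fold change was -0.23 (95% interval -0.62 to 0.15). Vcl, which encodes the adhesion protein vinculin, had 578, 297 and 582 CPM in WT and 682, 639 and 646 CPM in Nox4 KO, where WT replicate 2 alone was low. Palld, an actin scaffold gene, was also above WT in all 3, with a log2 fold change of 0.18 (95% interval -0.07 to 0.44). Against the background of 4.38% and 6.11%, 2 of 28 genes without overlap above and 1 below leave this list near the share of all genes.

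Collagens tended to be slightly higher in Nox4 KO without separating. Of 24 collagen genes kept, 20 had a positive log2 fold change, the median was 0.20 and no gene had libraries without overlap. Col1a1, the main chain of type I collagen, had 14833, 10899 and 12077 CPM in WT and 15961, 12886 and 12939.5 CPM in Nox4 KO. Col1a1 had a log2 fold change of 0.14 (95% interval -0.30 to 0.59). Col1a2, its partner chain, had 8317, 5698 and 5829 CPM in WT and 9497, 7480.4 and 6381 CPM in Nox4 KO, and a log2 fold change of 0.24 (95% interval -0.29 to 0.76). WT replicate 2 was the lowest library for 16 of the 24 genes and Nox4 KO replicate 1 the highest for 14. Without WT replicate 2 the median was 0.06, and without Nox4 KO replicate 1 it was 0.04.

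Among 46 other matrix and crosslinking genes, all of them kept, 5 lay above WT and 5 below without overlap, against 4.38% and 6.11% of all genes. The median was -0.01 and ranged from -0.06 to 0.05 with each library left out. Above were Ccn4, Fbln2, Loxl4, P4ha3 and Thbs1, and below were Ccn2, Loxl1, Mfap5, P4ha2 and Plod3. Ccn2, a secreted matricellular protein induced by TGF-β, had 8075, 8699.6 and 8587 CPM in WT and 6144, 7306 and 7939 CPM in Nox4 KO. The gap between its lowest WT and highest Nox4 KO library was small beside the spread within Nox4 KO. Loxl1, a lysyl oxidase that crosslinks elastin, had 605, 608 and 548 CPM in WT and 466, 452 and 493 CPM in Nox4 KO, and Plod3, a lysyl hydroxylase, had 816, 809 and 768 CPM in WT and 603, 703 and 610.4 CPM in Nox4 KO. In both, the gap between the lowest WT and the highest Nox4 KO library was smaller than the widest spread within a genotype. The fit gave Loxl1 a log2 fold change of -0.32, with -0.54 and -0.10 as the bounds of its 95% interval. For Plod3, the log2 fold change was -0.32, with a 95% interval from -0.56 to -0.083. Loxl4, another member of the lysyl oxidase family, lay on the other side, with 60.5, 50.7 and 59.7 CPM in WT and 73.0, 67.9 and 85.8 CPM in Nox4 KO. Fn1, which encodes fibronectin, overlapped between genotypes, with a log2 fold change of 0.27 (95% interval -0.36 to 0.90).

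Among 38 kept genes of TGF-β signaling, 1 was above and 3 were below WT without overlap, against 4.38% and 6.11% of all genes. The median log2 fold change was 0.04, and -0.02 without WT replicate 2. Ltbp1, which holds latent TGF-β in the matrix, was higher in each Nox4 KO library. Ltbp1 was measured at 156, 150.1 and 148 CPM in WT and 228, 177 and 261 CPM in Nox4 KO. Ltbp1 had a log2 fold change of 0.55 (95% interval 0.21 to 0.90). Eng, which encodes the co-receptor endoglin, was lower. The WT libraries had 222, 162 and 169.6 CPM of Eng and the Nox4 KO libraries 64.9, 131 and 122 CPM. Nox4 KO replicate 1 was the lowest and WT replicate 1 the highest, and the log2 fold change was -0.80 (95% interval -1.44 to -0.16). Pmepa1, a SMAD-responsive inhibitor of the pathway, also had libraries without overlap, with 858, 867 and 889.8 CPM in WT and 847, 851 and 848 CPM in Nox4 KO. This difference was small, with a log2 fold change of -0.039 (95% interval -0.24 to 0.16). Tgfb1i1, a focal adhesion protein gene also known as Hic-5, had a log2 fold change of -0.22 (95% interval -0.50 to 0.053).

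Fibroblast identity genes were present throughout, and some were lower in Nox4 KO. Of 32 listed lineage markers 28 were kept, 19 had a negative log2 fold change, and 5 lay below WT without overlap (6.11% of all genes did) while 1, Zeb1, lay above. The list median was -0.18, and -0.09 without WT replicate 2. Fap, which encodes fibroblast activation protein, had 4.26, 3.11 and 3.94 CPM in WT and 2.099, 1.89 and 1.66 CPM in Nox4 KO. All 3 Nox4 KO libraries were low. The fit gave Fap a log2 fold change of -1.003, with -1.49 and -0.51 as the bounds of its 95% interval. Twist2, a transcription factor of the dermis, had 39.3, 51.5 and 36.7 CPM in WT and 27.1, 32.9 and 26.7 CPM in Nox4 KO. En1, a homeobox gene, had 10.9, 12.7 and 9.62 CPM in WT and 5.33, 9.27 and 9.09 CPM in Nox4 KO. Snai1, a zinc finger repressor, had 124, 152 and 111 CPM in WT and 106, 102 and 103 CPM in Nox4 KO. For En1 and Snai1, WT replicate 2 was the highest library and the gap between genotypes was narrow.

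Inflammatory and complement genes were mostly lower in Nox4 KO. Of 35 listed chemokines, cytokines and complement genes 23 were kept, 21 of them with a negative log2 fold change and a median of -0.30. Without overlap, 6 of the 23 lay below WT, against 6.11% of all genes, and 0 lay above. Cxcl14, a chemokine of skin, had 216, 241 and 218 CPM in WT and 121, 167 and 141 CPM in Nox4 KO. The highest Nox4 KO library was clearly below the lowest WT library. For Cxcl14, the log2 fold change was -0.65, with a 95% interval from -0.97 to -0.34. Ccl8, a chemokine for monocytes, had 11.5, 9.80 and 16.6 CPM in WT and 4.22, 8.47 and 3.62 CPM in Nox4 KO. Serping1, the inhibitor of complement C1, had 90.9, 90.0 and 107 CPM in WT and 47.8, 79.8 and 56.9 CPM in Nox4 KO. Nox4 KO replicate 2 came closest to WT for Ccl8 and Serping1. Crlf2, the receptor chain for TSLP, had 21.0, 24.3 and 19.7 CPM in WT and 13.0, 14.7 and 16.4 CPM in Nox4 KO, and Cxcl1, a neutrophil chemokine, had 1.13, 1.23 and 2.64 CPM in WT and 0.283, 0.897 and 1.06 CPM in Nox4 KO. C3, the central complement component, ran the other way with 13.0, 15.7 and 55.4 CPM in WT and 54.0, 28.5 and 38.5 CPM in Nox4 KO, and its libraries overlapped. Without each library in turn, the list median ranged from -0.46 to -0.31.

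Macrophage markers differed widely between replicates of the same genotype, and their part in the inflammatory genes was not tested. Of 16 markers 14 were kept and all 14 had a negative log2 fold change, with a median of -0.38. Without overlap, 1 of the 14, Cd14, lay below WT, against 6.11% of all genes. Their summed level was 72.9, 42.2 and 177 CPM in WT and 142, 52.3 and 28.8 CPM in Nox4 KO. In such bulk libraries, fewer cells of a type and less RNA per cell cannot be told apart. WT replicate 3 was the highest library for 13 of the 14 and Nox4 KO replicate 3 the lowest for 12. Without WT replicate 3 the median was 0.45, and without Nox4 KO replicate 3 it was 0.02. No marker was at 0 in all 6 libraries, and Lyz2, which encodes lysozyme, had 3054 reads at most. Among the markers of other cells, the most specific ones were near 0 while others were counted. Krt14 of keratinocytes had at most 4 reads in any library, Pecam1 and Cdh5 of endothelium at most 15 each, Cldn5 had 0, and Adipoq of adipocytes had at most 3. In the keratinocyte list 4 of 12 genes were kept and the summed level was 20.3 to 62.6 CPM, and in the endothelial list 3 of 10 with 81.3 to 165 CPM. In the adipocyte list 3 of 12 were kept, with a summed level of 41.1, 26.2 and 26.9 CPM in WT and 13.4, 24.4 and 15.5 CPM in Nox4 KO. All 3 had a negative log2 fold change, with a median of -0.66, which ranged from -0.88 to -0.50 with each library left out. Without overlap, 1 of the 3 lay below WT, against 6.11% of all genes. Of 8 pericyte and smooth muscle markers, 5 were kept, all 5 had a positive log2 fold change with a median of 0.37, 0 had libraries without overlap, and the summed level was 617 to 849 CPM. Without Nox4 KO replicate 3 their median was 0.11 with 3 of 5 positive, and without WT replicate 2 it was 0.16 with 4 of 5 positive.

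Growth factor genes had more negative than positive differences. Of 41 kept genes of growth factor, Wnt and BMP signaling, 28 had a negative log2 fold change, with a median of -0.13. Without overlap, 5 of the 41 lay below WT, against 6.11% of all genes, and 0 lay above. The median was -0.04 without WT replicate 3, with 24 negative genes, and -0.08 without WT replicate 1. Vegfc, a lymphatic growth factor, had 53.1, 56.4 and 68.5 CPM in WT and 41.9, 48.8 and 45.03 CPM in Nox4 KO. Wnt10b, a Wnt ligand, had 7.85, 7.51 and 8.17 CPM in WT and 3.68, 6.76 and 3.79 CPM in Nox4 KO, and Pgf, placental growth factor, had 19.7, 18.4 and 17.7 CPM in WT and 10.4, 17.6 and 7.48 CPM in Nox4 KO. Nox4 KO replicate 2 nearly reached WT for Wnt10b and Pgf. Igfbp7 had 695, 963 and 601 CPM in WT and 539.98, 544 and 571 CPM in Nox4 KO, and Gdf15, a stress-responsive cytokine, had 3.81, 7.17 and 4.26 CPM in WT and 1.23, 2.94 and 3.74 CPM in Nox4 KO. For both, WT replicate 2 was the highest library.

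Genes of cholesterol and fatty acid synthesis were higher in Nox4 KO than in WT in the mean of each kept member. All 25 kept members had a positive log2 fold change, the median was 0.28, and 7 lay above WT without overlap, against 4.38% of all genes. These were Scd1, Scd2, Fasn, Acly, Acaca, Elovl6 and Stard4. Scd1, a desaturase that makes monounsaturated fatty acids, had 95.95, 115 and 84.0 CPM in WT and 161, 125 and 185 CPM in Nox4 KO. Scd1 had a log2 fold change of 0.67 (95% interval 0.25 to 1.10). Fasn, the fatty acid synthase, had 335, 242 and 311 CPM in WT and 416, 360.5 and 348 CPM in Nox4 KO. Acly, which supplies cytosolic acetyl-CoA, had 229, 199.5 and 216 CPM in WT and 268, 256 and 259.8 CPM in Nox4 KO, and its spread within each genotype was small. The fit gave Acly a log2 fold change of 0.28, with 0.074 and 0.49 as the bounds of its 95% interval. Srebf1, which encodes a main activator of these genes, had a log2 fold change of 0.11 (95% interval -0.12 to 0.33). Nox4 KO replicate 1 was the highest library for 18 of the 25 genes and WT replicate 3 the lowest for 21. Without each library in turn the median ranged from 0.16 to 0.40.

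**Figure D3:**
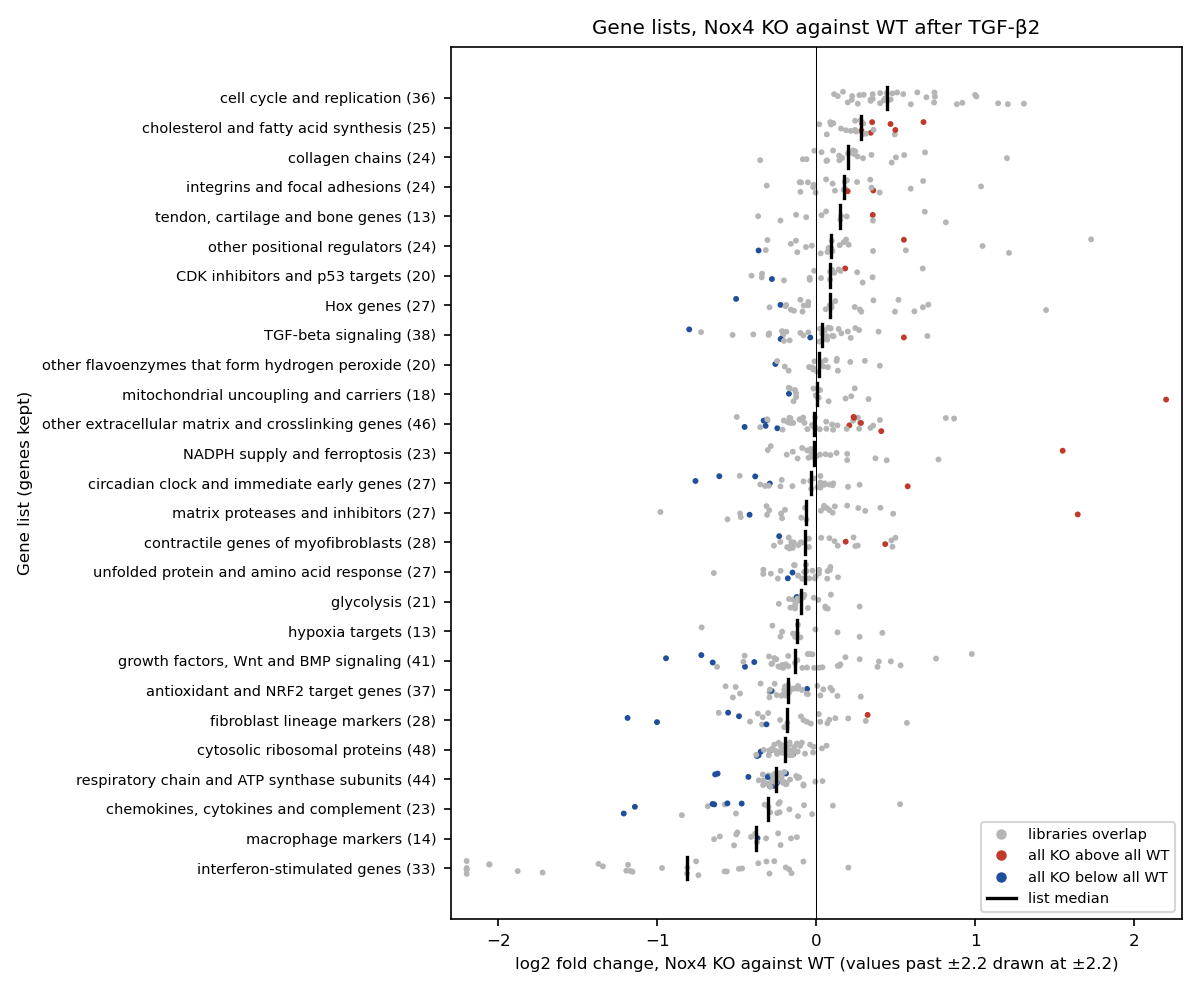
Each point is a kept member of a gene list, placed by its log2 fold change of Nox4 KO against WT, with the list median as a black bar. Red and blue points are members whose libraries do not overlap, which are 7 of 25 in cholesterol and fatty acid synthesis and 0 of 36 in the cell cycle, although all members of both lists lie above 0.

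Cell cycle genes were higher in the mean of Nox4 KO, but their libraries overlapped. All 36 genes of the list had a positive log2 fold change with a median of 0.45, and 0 had libraries without overlap. Mki67, a marker of dividing cells, had 26.6, 22.9 and 5.55 CPM in WT and 77.6, 39.7 and 19.0 CPM in Nox4 KO. WT replicate 3 was the lowest library for 35 of the 36 genes and Nox4 KO replicate 1 the highest for 35. Top2a, the topoisomerase of dividing cells, had the same order at its ends, with 43.3, 50.9 and 12.7 CPM in WT and 116, 65.4 and 32.8 CPM in Nox4 KO. For Mki67, the log2 fold change was 1.31, with a 95% interval from -0.28 to 2.89. The summed level of the list was 961, 1239 and 539.5 CPM in WT and 1741, 1153 and 763 CPM in Nox4 KO. Without WT replicate 3 the median was 0.13 and without Nox4 KO replicate 1 it was 0.08. Cholesterol and fatty acid genes had the same highest and lowest library, and the part of the cell cycle in them was not tested. Cdkn1a, which encodes the inhibitor p21, was lower in Nox4 KO, with 601, 685 and 701 CPM in WT and 500.1, 548 and 589 CPM in Nox4 KO. Its list of 20 CDK inhibitors and p53 targets had 12 positive and 8 negative log2 fold changes, with a median of 0.09. Without overlap, 1 of the 20 lay above WT and 1 below, against 4.38% and 6.11% of all genes.

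Interferon-stimulated genes had the lowest median of all lists, and it turned positive without 1 library. Of 44 listed genes 33 were kept, 32 had a negative log2 fold change, and the median was -0.81, yet 0 had libraries without overlap. WT replicate 1 was the highest library for 30 of the 33. Isg15, a ubiquitin-like modifier, had 52.9, 1.89 and 1.48 CPM in WT and 1.84, 5.27 and 1.49 CPM in Nox4 KO, and Usp18, the protease that removes it, had 26.1, 0.562 and 0.539 CPM in WT and 0.377, 1.61 and 0.994 CPM in Nox4 KO. Irf7, a transcription factor of the response, had 22.5, 1.46 and 3.83 CPM in WT and 1.58, 3.43 and 2.56 CPM in Nox4 KO. In each of these genes the other 5 libraries were low. Without WT replicate 1 the median was 0.24. Among the control libraries the high one was WT replicate 3, with 4.46, 3.93 and 72.4 CPM for Isg15 in WT and 6.52, 5.46 and 1.49 CPM in Nox4 KO.

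The promoters of 3 of these genes are shown because the genes were at least 4-fold higher in WT replicate 1 than in every other library (0.5 added to each CPM) and hold a match to the interferon-stimulated response element. Sequences are RefSeq promoters on GRCm38.p6, from 250 bases before to 50 after the start (the first promoter listed for each gene), written on the strand of the gene, with matches to GAAANNGAAA on either strand in capitals. Matches that overlap each other form 1 longer stretch.
Isg15 (chr4:156200769-156201068, minus strand): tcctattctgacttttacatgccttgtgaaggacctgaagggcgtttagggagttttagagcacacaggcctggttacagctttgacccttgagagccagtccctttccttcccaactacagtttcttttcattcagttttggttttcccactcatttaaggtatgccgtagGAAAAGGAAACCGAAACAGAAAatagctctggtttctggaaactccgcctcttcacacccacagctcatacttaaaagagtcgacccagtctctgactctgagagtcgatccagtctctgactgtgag
Ifit1 (chr19:34640639-34640938, plus strand): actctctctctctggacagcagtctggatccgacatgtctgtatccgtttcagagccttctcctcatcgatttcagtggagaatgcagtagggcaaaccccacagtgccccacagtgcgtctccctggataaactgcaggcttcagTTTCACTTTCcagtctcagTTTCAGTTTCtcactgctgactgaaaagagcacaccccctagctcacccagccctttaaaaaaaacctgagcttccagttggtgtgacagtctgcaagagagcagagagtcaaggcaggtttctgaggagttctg
Trim30a (chr7:104465144-104465443, minus strand): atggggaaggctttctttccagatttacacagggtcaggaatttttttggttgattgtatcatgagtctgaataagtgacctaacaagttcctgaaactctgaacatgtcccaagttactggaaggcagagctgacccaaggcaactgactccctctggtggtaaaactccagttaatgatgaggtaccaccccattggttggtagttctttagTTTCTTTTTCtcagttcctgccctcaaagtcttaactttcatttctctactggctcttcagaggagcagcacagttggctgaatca
Isg15 held 3 overlapping matches, Ifit1 2 and Trim30a 1. Of the 33 kept interferon genes 26 had a promoter in the table, and 14 of these held a match, compared with 2.9% of 9199 promoters of kept genes. A match is a description of the letters only. The sterol regulatory element, searched as TCACNCCAC on both strands, was found in 1 of 15 promoters of the cholesterol and fatty acid list, that of Hmgcs1, and in 1.04% of kept genes.

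Subunits of the respiratory chain and ATP synthase were lower in Nox4 KO in 43 of 44 genes, with a median of -0.25, and 8 lay below WT without overlap, against 6.11% of all genes. Cox5b and Cox8a, subunits of cytochrome c oxidase, differed most. Levels of Cox5b were 22.6, 33.7 and 20.8 CPM in WT and 16.9, 15.9 and 17.2 CPM in Nox4 KO. Cox8a was measured at 70.1, 109 and 64.3 CPM in WT and 50.2, 50.5 and 55.6 CPM in Nox4 KO. WT replicate 2 was the highest library for 42 of the 44 genes. Without WT replicate 2 the median was -0.04 and 28 of the 44 were negative. Cytosolic ribosomal protein genes behaved alike, with 46 of 48 negative, a median of -0.20, and -0.01 without WT replicate 2. Their summed level was 7049, 9948 and 6494 CPM in WT and 6878, 6784 and 6807 CPM in Nox4 KO. The 13 mitochondrially encoded genes are not analysed here.

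WT replicate 2 also differed from the rest by gene length. In genes with under 1 kb of merged exons (n = 371), WT replicate 2 was 0.57 on the log2 scale above the mean of the other 5 libraries in the median gene, and in genes over 4 kb (n = 4841) it was below them, at -0.32. The other 5 libraries stayed between -0.17 and 0.099 in these classes. The part of gene length in the lists that move with WT replicate 2 was not tested. The antioxidant and NRF2 target list had 30 of 37 negative values with a median of -0.18, which became -0.07 without WT replicate 2. Gpx8 and Keap1, 2 of the 37, lay below WT without overlap, against 6.11% of all genes. Gpx8, a glutathione peroxidase family member of the endoplasmic reticulum, had 199.7, 254 and 202 CPM in WT and 166, 194 and 179 CPM in Nox4 KO, and Hmox1, which encodes heme oxygenase, overlapped with a log2 fold change of -0.51 (95% interval -1.41 to 0.40).

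**Figure D4:**
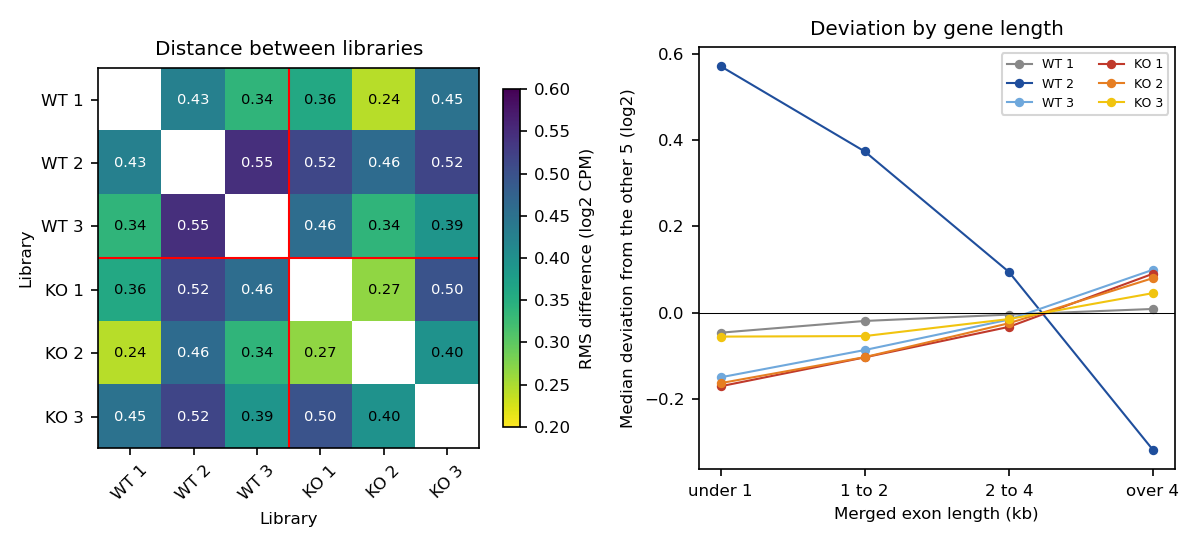
Left, the root-mean-square difference of log2 CPM over the kept genes for each pair of libraries, with red lines between genotypes. Right, the median deviation of each library from the other 5 by merged exon length, where WT replicate 2 alone falls from 0.57 in short genes to -0.32 in long genes.

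Distances between single cultures of 1 genotype overlapped those between genotypes. The root-mean-square difference of log2 CPM was 0.339 to 0.545 between WT libraries, 0.267 to 0.498 between Nox4 KO libraries and 0.243 to 0.516 between a WT and a Nox4 KO library. The smallest of all 15 distances was that of WT replicate 1 and Nox4 KO replicate 2. In a principal component analysis, the first component (37.0% of the variance) set WT replicate 2 apart and the second (32.0%) separated Nox4 KO replicate 1 from Nox4 KO replicate 3. The genotypes did not overlap on the third component (18.6%), where WT lay between 2.2 and 17.4 and Nox4 KO between -16.4 and -2.1. The median SD of log2 CPM between WT libraries was 0.2003 and between Nox4 KO libraries 0.119. An SD over 1 was found for 122 genes in WT and 134 in Nox4 KO.

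**Figure D5:**
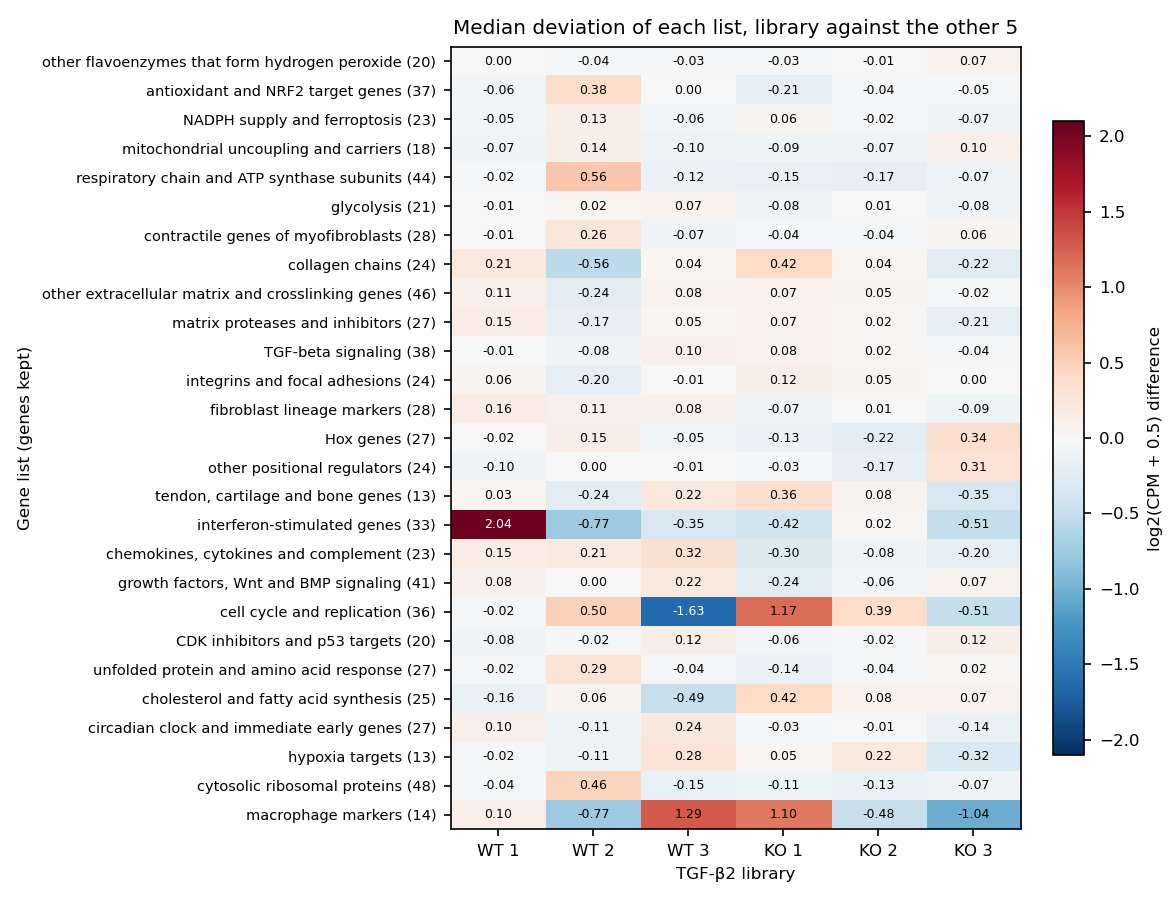
Each cell is the median difference, in log2(CPM + 0.5), of a library from the mean of the other 5 over the kept members of a list. Single cells stand out, such as 2.04 for interferon genes in WT replicate 1, -1.63 for the cell cycle in WT replicate 3 and 0.56 for the respiratory chain in WT replicate 2.

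Some genes stood apart in a single culture. A level at least 4 times above all other 5 libraries was found for 1 gene in Nox4 KO replicate 1, 0 in replicate 2 and 5 in replicate 3, and for 10 genes in WT replicate 1, 1 in WT replicate 2 and 0 in WT replicate 3, with 0.5 added to each CPM. Ccdc87, a coiled-coil protein gene, was the gene of Nox4 KO replicate 1. The WT libraries had 0.401, 0.204 and 0.216 CPM of Ccdc87 and the Nox4 KO libraries 19.5, 0.230 and 0.450 CPM. The Nox4 KO control libraries had 18.6, 0.302 and 0.386 CPM, again with replicate 1 high. Map2, a microtubule protein of neurons, was the clearest gene of Nox4 KO replicate 3. Levels of Map2 were 0.151, 0.204 and 1.11 CPM in WT and 0.424, 0.368 and 18.1 CPM in Nox4 KO. Its controls had 0.325, 0.232 and 6.30 CPM. Mmp16, Prl3a1 and Ptprq were among its other genes. Pdgfb, a growth factor gene, was low in the same library, with 21.4, 19.7 and 25.8 CPM in WT and 22.3, 22.2 and 4.16 CPM in Nox4 KO, as was the carboxypeptidase gene Cpz, with 4.74, 2.55 and 2.67 CPM in WT and 4.32, 2.58 and 0.237 CPM in Nox4 KO. Lhx9, a homeobox gene, had 4.57, 8.27 and 9.30 CPM in WT and 4.90, 6.92 and 37.5 CPM in Nox4 KO, and Nox4 KO replicate 3 was the highest library for 17 of 27 Hox genes and 13 of 24 other positional regulators.

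Ucp2 and Trim12a divided the Nox4 KO cultures in the same way. They were the 2 genes for which Nox4 KO replicates 2 and 3 both stood at least 4-fold away from all other libraries while Nox4 KO replicate 1 did not. Trim12a, a member of a tripartite motif family on chromosome 7, had 16.7, 20.3 and 7.06 CPM in WT and 17.0, 0 and 0 CPM in Nox4 KO. Its control libraries had 9.51, 0 and 0 CPM in Nox4 KO and 8.40, 8.43 and 6.97 CPM in WT. Trim30d, a neighbour in the same family, was also at 0 in Nox4 KO replicates 2 and 3, with 8.50, 0.434 and 0.782 CPM in WT and 1.44, 0 and 0 CPM in Nox4 KO. Reads that mapped to more than 1 gene of this family were discarded, so their levels are uncertain. Ucp2 lies 13.1 Mb and Trim12a 16.9 Mb from Nox4. The Y-linked genes Ddx3y, Eif2s3y, Kdm5d and Uty were expressed in every library, with 45.1, 45.6 and 50.03 CPM in WT and 49.3, 48.5 and 51.1 CPM in Nox4 KO for Eif2s3y.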

How the data were processed

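The authors prepared TruSeq libraries, sequenced single-end reads, aligned them to GRCm38 using STAR, kept reads with a single location and used featureCounts 1.4.6 to count those on merged protein-coding exons of each gene. Whether strand was used is not given in the sources used here. The deposited table holds these raw counts for 21556 genes without normalization, and all its columns were assigned to a sample. From the counts, CPM was computed with TMM factors and the test was edgeR's quasi-likelihood test (R 4.3.3, edgeR 4.0.16) on the 6 TGF-β2 libraries, with Benjamini-Hochberg adjustment over the 11583 genes kept and a call at an adjusted p-value under 0.05. The 95% interval was derived from the F statistic. A pseudocount of 0.5 CPM was used for log2 values of single libraries, and two-sided exact permutation tests of 3 against 3 allow no p-value under 0.1. Gene symbols, positions and merged exon lengths came from GENCODE on GRCm38. Totals of 37221997 to 43796260 counts limit precision for counting error only, and a count of 0 allows 3 counts.

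The gene lists and the members of this comparison were chosen with earlier results of these data known. Genes were named by rule: Nox4, Ucp2, Hddc3, Islr and Acta2, the 12 largest differences in each direction without overlap, the 10 smallest p-values in each direction, list members whose libraries do not overlap or else the 2 with the highest level per length, the 10 most variable genes of each group, and genes called by an alternative on all 6 libraries. Cyba, Ncf1, Rac1, Fn1, C3, Mki67, Top2a, Srebf1, Hmgcs1, Hmox1, Ddx3y, Kdm5d, Uty, Lyz2, Ifit1, Trim30d, Pdgfb, Cpz, Prl3a1 and Ptprq, and markers under the filter, were named after their values were seen. A few genes that the rule would name are not reported here. DESeq2 1.42.0, limma 3.58.1, other normalizations, filters and blocks, and leaving out each library were tried. The scripts were tested on simulated data.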

Additional observations from a re-analysis of the deposited data

How the results depend on the processing

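With 3 libraries per genotype the number of calls depends on the test. edgeR's quasi-likelihood test called 0 genes, and so did its legacy and robust forms, limma voom, 3 other normalizations, 3 other filters, a fold limit of 2 and a fit on all 12 libraries. DESeq2 called 19, the exact test 8 and the likelihood ratio test 8. Genes at an unadjusted p-value under 0.05 that were higher numbered 197, and 297 without a filter. With all 12 libraries they numbered 348, beside 432 lower genes in place of 184. That fit treated same-numbered control and TGF-β2 libraries as independent. Their deviations from the group mean had correlations of 0.764, 0.687 and 0.743 in Nox4 KO and 0.0999, 0.419 and 0.546 in WT. With the replicate block, the higher genes at the unadjusted limit numbered 344 and 0 genes were called. Same-numbered WT and Nox4 KO libraries did not deviate together (correlations of 0.273, -0.158 and 0.222), and WT replicate 1 correlated best with Nox4 KO replicate 2, so the numbers are not taken to pair these samples.

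Leaving out each library in turn gave 0 to 1 calls, 109 to 362 higher and 85 to 406 lower genes at the unadjusted limit, and 832 to 1825 higher and 868 to 1776 lower genes without overlap, which fewer libraries raise by construction. The highest counts came without WT replicate 3. The log2 fold change of Acta2 was -0.17, lay between -0.38 and 0.032 with each library left out, and was positive only without WT replicate 2. Those of Nox4, Ucp2, Hddc3 and Islr kept their direction under every alternative.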

Other observations

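Some gene groups outside the main account had few members apart. Among 27 kept genes of the circadian clock and immediate early response, 4 lay below WT without overlap, against 6.11% of all genes. These were Dbp, Jund, Junb and Ier2, while 1, Npas2, lay above, against 4.38% of all genes. The list median was -0.03, and -0.14 without WT replicate 2. Dbp, a clock output factor, had 8.80, 8.19 and 8.57 CPM in WT and 4.98, 4.60 and 5.51 CPM in Nox4 KO. Jund, a subunit of AP-1, had 55.9, 59.2 and 51.5 CPM in WT and 31.2, 36.9 and 41.0 CPM in Nox4 KO. Dbp kept to a narrow range in each genotype, while Jund spread more in Nox4 KO than in WT. Junb, a related subunit, had 91.8, 96.3 and 91.9 CPM in WT and 76.3, 79.7 and 58.4 CPM in Nox4 KO, where Nox4 KO replicate 3 was lowest.

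Glycolysis genes had a median log2 fold change of -0.09, with 15 of 21 negative, and hypoxia targets one of -0.12, with 10 of 13 negative and 0 without overlap. Without WT replicate 3 the hypoxia median was 0.0089 and without Nox4 KO replicate 3 it was 0.011, each with 8 of 13 positive, and the glycolysis median was -0.03 without WT replicate 2 as well as without Nox4 KO replicate 3. Genes of the unfolded protein and amino acid response had a median of -0.07 (-0.0063 without WT replicate 2). Calr and Xbp1 were the 2 of 27 below WT without overlap, against 6.11% of all genes. Xbp1, a transcription factor of this response, had 203, 247 and 213 CPM in WT and 187, 197 and 201 CPM in Nox4 KO. Hoxc13, a homeobox gene of hair and nail, had 17.9, 22.1 and 17.7 CPM in WT and 14.5, 14.0 and 12.1 CPM in Nox4 KO, and Hoxb4 was the other Hox gene below WT without overlap. These were 2 of 27 kept Hox genes, against 6.11% of all genes. Of the 27, 15 had a positive log2 fold change, with a median of 0.08, and of -0.18 without Nox4 KO replicate 3. Lpl, which encodes lipoprotein lipase, had 34.2, 19.4 and 19.5 CPM in WT and 9.39, 18.6 and 11.4 CPM in Nox4 KO, and Kdr, a VEGF receptor, had 9.83, 10.6 and 8.81 CPM in WT and 13.2, 13.7 and 15.7 CPM in Nox4 KO. Lpl was close to WT in Nox4 KO replicate 2, and Kdr lay above WT in each Nox4 KO library. Neither passed the test, with an adjusted p-value of 0.84 for both in edgeR's quasi-likelihood test.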
